A study of Mus musculus with 32 samples.

Results

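Among 31846 merged regions of open chromatin in mouse haematopoietic stem and progenitor cells (HSPCs), 472 (1.48%) were strong mainly after LPS, the bacterial lipopolysaccharide that activates Toll-like receptor 4. Open chromatin was measured by ATAC-seq, in which a transposase inserts adapters into accessible DNA, and was read here from the authors' peak lists, 1 for each of 16 biological replicates. Each list was shortened to its 19100 strongest autosomal peaks, ordered by the authors' -log10 p of the peak with ties broken by fold enrichment, and peaks overlapping between lists were merged. A member has a peak in at least 7 of the 8 LPS lists and in at most 1 of the 8 PBS lists. Regions were scored per library by percentile rank, taken from the strongest peak that the shortened list holds there. The top peak of a list scores 100, and a region without a peak in the shortened list scores 0. The same choice with LPS and PBS exchanged gave 220 regions (0.691%), called the PBS-side regions below. The 472 were chosen on LPS against PBS, so every difference between the treatments in them is a description, with no test and no weight as evidence of an LPS response.

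The cells came from C57BL/6J (CD45.2) recipients, lethally irradiated and given mixed marrow. In AF9-experienced mice (labelled AF9+/+), 200000 CD45.1 marrow cells homozygous for an inducible human MLL-AF9 fusion (hMLL-AF9) and for rtTA, the doxycycline-dependent activator, were given with 800000 wild-type CD45.1+/2+ marrow cells. In naive mice (AF9-/-), the 200000 CD45.1 cells carried homozygous rtTA and no hMLL-AF9. Starting 6 to 8 weeks after transplantation, all mice received doxycycline for 5 weeks and then none for 4 weeks, were injected with PBS or LPS, and were sacrificed 24 hours later. The sorted population was CD45.1+/2+, Lin- cKit+ Sca1+: wild-type cells that had shared a marrow with leukaemic cells or had not, and not the leukaemic cells themselves. There were 4 naive PBS, 4 AF9-experienced PBS, 3 naive LPS and 5 AF9-experienced LPS replicates, each sequenced as 2 technical libraries. Nothing used here gives the LPS dose, the age of the mice or the number of mice per replicate, so p-values measure only the spread between these replicates.

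Most distal regulatory DNA is closed until transcription factors bind it. In blood progenitors, RUNX, GATA, ETS-family and C/EBP factors hold enhancers open, while Toll-like receptor signalling through MyD88 and TRIF activates NF-kB, AP-1 and interferon regulatory factors. HSPCs carry Toll-like receptors themselves and also sense cytokines released by other marrow cells. Such exposure drives them into cycle and towards myeloid output. An enhancer that opens during a challenge can stay marked after it, which is one basis of innate immune memory.

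Promoter windows lying under members show some of the DNA at issue. RefSeq windows (GRCm38.p6, 250 bases before to 50 after a gene's start) overlapped 29 of the 472 members, with 29 windows in all; some windows belong to another gene than the one the region is linked to by position, as Gm41235 under the Acod1 region. The 250 bases before the start are printed 5′ to 3′ on the gene's strand for 7 genes of immune or myeloid interest or with the highest ranks, chosen after the matches were seen. Capitals mark matches, on either strand, to the AP-1 motif TGANTCA, the NF-kB motif (GGGA, any base, TT, any base, CC), the C/EBP motif TTGCNNAA, the GATA motif AGATAA or the ETS/PU.1 motif GAGGAAGT. The first 5 hold an AP-1 match and the last 2 an NF-kB match. C3ar1 encodes the receptor of a complement fragment (chr6:122856158-122856407, minus strand), Cd244a a receptor of the SLAM family (chr1:171558943-171559192, plus strand) and Cd68 an endosomal glycoprotein of macrophages (chr11:69666171-69666420, minus strand). Smim14 encodes a small membrane protein (chr5:65484062-65484311, minus strand) and Atp8b4 a phospholipid-transporting ATPase of the flippase family (chr2:126491554-126491803, minus strand). Cxcl2 encodes a neutrophil-attracting chemokine (chr5:90903649-90903898, plus strand) and Hpn a membrane serine protease (chr7:31110998-31111247, minus strand).
C3ar1: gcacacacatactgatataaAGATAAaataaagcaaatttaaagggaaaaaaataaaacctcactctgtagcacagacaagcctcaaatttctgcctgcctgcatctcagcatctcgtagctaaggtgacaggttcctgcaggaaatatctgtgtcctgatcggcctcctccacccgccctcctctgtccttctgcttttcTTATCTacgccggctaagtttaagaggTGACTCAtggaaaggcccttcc
Cd244a: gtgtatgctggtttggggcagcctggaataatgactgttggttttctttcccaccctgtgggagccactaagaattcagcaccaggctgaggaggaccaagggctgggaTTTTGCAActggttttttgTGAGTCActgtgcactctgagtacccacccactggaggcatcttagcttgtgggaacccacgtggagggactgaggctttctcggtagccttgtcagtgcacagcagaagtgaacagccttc
Cd68: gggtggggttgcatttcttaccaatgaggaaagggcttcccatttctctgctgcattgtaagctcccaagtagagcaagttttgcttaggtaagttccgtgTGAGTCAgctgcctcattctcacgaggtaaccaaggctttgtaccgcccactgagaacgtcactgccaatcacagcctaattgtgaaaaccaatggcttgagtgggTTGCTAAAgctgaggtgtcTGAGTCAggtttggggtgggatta
Smim14: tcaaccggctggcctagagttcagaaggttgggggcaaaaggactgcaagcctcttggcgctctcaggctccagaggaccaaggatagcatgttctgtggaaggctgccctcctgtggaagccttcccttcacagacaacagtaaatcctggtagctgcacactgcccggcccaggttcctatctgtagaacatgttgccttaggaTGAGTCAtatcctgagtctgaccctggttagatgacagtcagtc
Atp8b4: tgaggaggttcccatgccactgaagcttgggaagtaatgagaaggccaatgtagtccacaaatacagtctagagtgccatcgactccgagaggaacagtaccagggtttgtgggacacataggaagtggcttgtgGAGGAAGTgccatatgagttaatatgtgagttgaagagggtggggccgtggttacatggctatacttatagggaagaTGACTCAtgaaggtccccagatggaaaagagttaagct
Cxcl2: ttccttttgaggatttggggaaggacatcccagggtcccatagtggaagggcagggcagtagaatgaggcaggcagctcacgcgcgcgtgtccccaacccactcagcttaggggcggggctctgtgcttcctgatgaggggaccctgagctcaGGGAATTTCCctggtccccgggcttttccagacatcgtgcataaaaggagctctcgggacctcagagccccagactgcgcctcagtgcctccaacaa
Hpn: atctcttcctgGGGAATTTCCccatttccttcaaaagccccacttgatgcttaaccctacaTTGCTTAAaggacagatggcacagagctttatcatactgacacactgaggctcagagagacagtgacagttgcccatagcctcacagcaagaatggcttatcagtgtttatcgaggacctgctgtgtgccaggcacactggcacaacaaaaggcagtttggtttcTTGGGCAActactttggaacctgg

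The regions over these windows differed in how evenly they ranked after LPS. The C3ar1 region (chr6:122855957-122856424) stood at percentile 17.7, 25.1 and 37.3 in the naive LPS libraries and at 31.3, 39.2, 31.5, 30.7 and 44.5 in the AF9-experienced LPS libraries. None of the 8 PBS lists held it among their 19100 strongest. Smim14 (chr5:65483902-65484428) ranked higher, at 54.0, 39.1 and 39.0 in naive LPS and 55.5, 17.0, 49.8, 49.0 and 38.3 in AF9-experienced LPS, again with no PBS list. One AF9-experienced library, replicate 2, lay well under the other 7 there. Hpn (chr7:31110860-31111718) had 58.3, 60.9 and 6.27 in naive LPS, 44.0, 53.1, 39.6, 36.9 and 59.9 in AF9-experienced LPS, and 6.57 in naive PBS 4. Its lowest LPS value, in naive LPS 3, was thus below its one PBS value. Cd244a (chr1:171558728-171559428) was missing from AF9-experienced LPS 2 and stood at 18.3 to 33.3 in the other 7 LPS lists.

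Cxcl2 and Cd68 were the weakest of the 7. The Cxcl2 region (chr5:90902846-90904193) had 6.71, 0 and 17.7 in naive LPS and 4.35, 23.4, 19.0, 6.04 and 29.6 in AF9-experienced LPS. Its highest value of all, 40.8, was in AF9-experienced PBS 1, so LPS and PBS libraries overlapped. Cd68 (chr11:69665754-69666527) had 23.3, 7.67 and 4.68 in naive LPS, 10.6, 0.24, 16.9, 12.0 and 35.0 in AF9-experienced LPS and 15.7 in naive PBS 1. Ranked by fold enrichment in place of -log10 p, the LPS-minus-PBS difference at Cd68 turned to -0.114 percentile points.

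Whole windows were then searched, the 50 bases after the start included. Over all 29 windows under members, 10 (34.5%) held an AP-1 match. The share was 4.32% of the 11775 windows under tested regions (found in 3 or more lists) and 7.85% of all 31365 windows. Matches to the RUNX motif TGTGGT were in 10 windows (34.5%, against 11.9% and 16.7%). C/EBP matches were in 8 (27.6%, against 7.58% and 10.9%), and GATA matches in 6 (20.7%, against 5.27% and 11.2%). ETS/PU.1 matches were in 3 (10.3%, against 3.24% and 3.25%), and NF-kB matches in 2 (6.90%, against 1.27% and 1.21%). For the STAT motif TTCNNNGAA (2 windows), the interferon response motif (GAAA, 2 bases, GAAA; 1 window) and the CTCF motif (CCA, 2 bases, AG, 2 bases, GGC; 1 window), the shares were 6.90%, 3.45% and 3.45%, beside 6.32%, 2.79% and 3.13% under tested regions. No window held the TCF/LEF motif CTTTGANC (2.91% under tested regions). The windows under members had a median GC content of 51.3%, against 62.3% under tested regions and 53.0% over all windows. The part of base composition in these shares was not tested. Some letters serve more than 1 motif, as where AP-1 and C/EBP matches share bases in the 1700012B09Rik window and AP-1 and STAT matches do in Ugt1a6a. Counting only AP-1 matches that lie inside the region itself, 9 windows (31.0%) held one, against 4.03% under tested regions. A match is a string of letters and not a shown binding site, and 29 windows are a small share of the members. Peak sequences away from promoters were not used here.

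**Figure D1:**
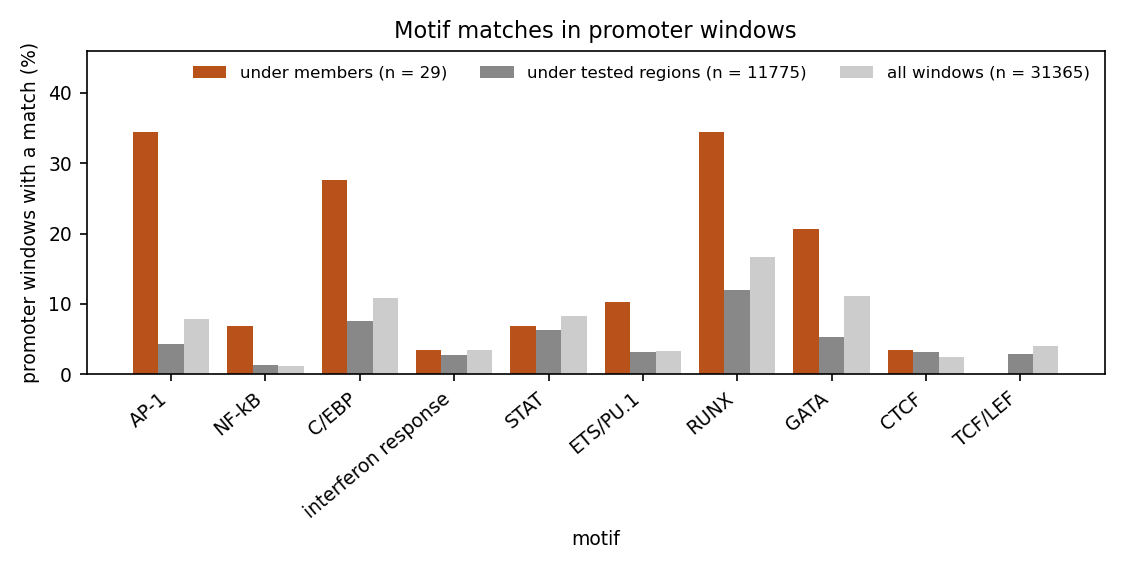
Share of RefSeq promoter windows with a match to each motif (y axis, percent), for windows under members, under all tested regions and all windows. AP-1 and RUNX matches are in 10 of 29 windows under members, and NF-kB matches in 2.

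The name of the set holds only for the shortened lists. In the full lists, every one of the 472 regions had a peak in at least 1 PBS list, and 445 (94.3%) had one in all 6 of the longer PBS lists. In the LPS libraries, the median rank of the members in the full list, counted from the strongest peak, was 13045 to 14949, inside the cut at 19100. In the 6 longer PBS lists it was 24739 to 32057, outside it. The members are therefore regions open in both treatments whose place in the order of peaks lay on either side of the cut, not sites absent without LPS. In the shortened lists 435 to 457 of the 472 had a peak in each LPS library other than naive LPS 3, which held 393, and 6 to 56 had one in each PBS library. Naive LPS 3 was the one LPS list missing for 79 members, AF9-experienced LPS 5 for 37 and each of the others for 15 to 27.

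**Figure D2:**
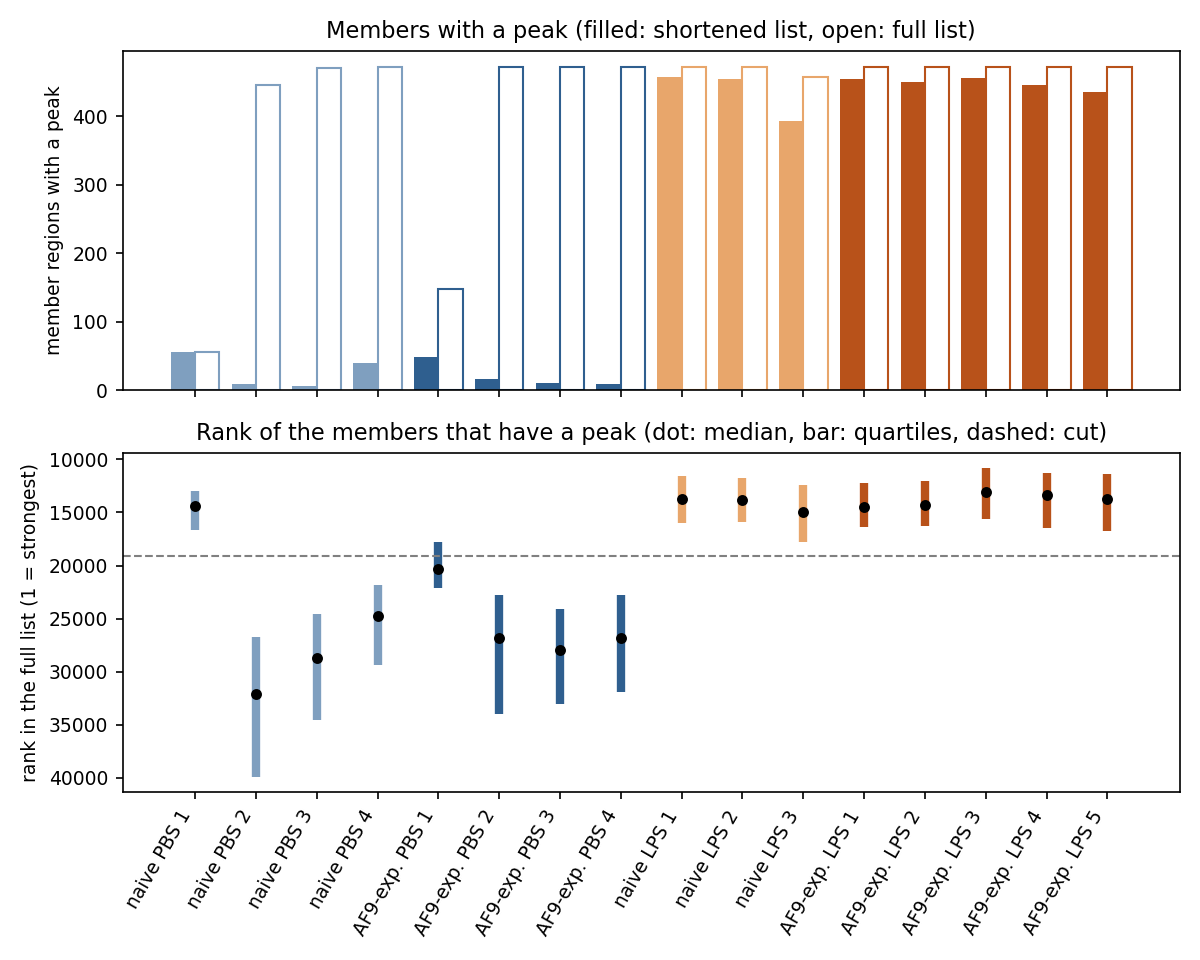
Upper panel: number of the 472 members with a peak in each library's shortened list (filled bars) and full list (open bars). Lower panel: rank of the members that have a peak in the full list (dot, median; bar, quartiles; 1 is the strongest), with a dashed line at rank 19100. All LPS medians lie above the line; of the PBS medians, only that of naive PBS 1, over 56 members, does.

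The 3 shortest lists stood apart, and the treatments also differed in signal. Naive PBS 1 held 19448 peaks, AF9-experienced PBS 1 25685 and naive LPS 3 39464, against 60841 to 88816 in the others. Their shortened lists had a median fold enrichment, the authors' ratio of a peak to its local background, of 5.07, 5.34 and 6.58. The other LPS lists had 9.16 to 13.6 and the other PBS lists 13.9 to 19.4, so treatment and signal went together outside the short lists. The short PBS lists, with a fold below that of every LPS list, held 56 and 49 members. Naive PBS 1 had only 19100 autosomal peaks, so the cut removed none there. The full list of AF9-experienced PBS 1 held 147 members. The part of signal in membership was not tested. Against the median fold of its own shortened list, the members' median fold was 0.809 to 0.871 in LPS libraries, 0.542 to 0.672 in the 6 longer PBS libraries, and 0.806 and 0.689 in the short ones. In naive PBS 1 that ratio covers only the 56 members present, and in AF9-experienced PBS 1 only the 147 in its full list. Read depth is not known from peak lists. Peaks on chromosome Y numbered 2 or 3 in 5 of the 8 LPS lists and 1 in 1 PBS list, and were otherwise 0; the part of this in the result was not tested.

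Marker gene ends fitted the sort in part. A region within 1 kb of an end of Kit, Cd34, Meis1, Mecom, Hlf and Flt3 was in all 16 shortened lists, with Kit at 59.5 to 75.1. Ly6a, which encodes Sca1, had none in any, Gata2 had one in 1 list and Runx1 in 4. Of 10 mature T, NK and B cell genes, 7 (among them Cd3e, Cd8a and Ms4a1) had no peak at an end in any list, Cd4 and Nkg7 had one in 1, and Cd3d in all 16. Of 7 mature myeloid genes, Itgam, S100a8, S100a9 and Ltf had none, and Lyz2 and Csf1r were in 1 list each. Adgre1 was in 4 lists, with a median of 0.0 after PBS and 1.65 after LPS.

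Members were mid-strength to weak peaks. The mean percentile rank of a member over the 8 LPS libraries had a median of 24.9, quartiles of 19.0 and 33.2 and a range of 5.96 to 64.1. Only 13 members (2.75%) averaged above 50, against 60.3% of all 15186 regions that 7 or 8 LPS lists share, whose median was 58.8. At the other end, 137 members averaged below 20.

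The member with the highest mean lies inside Xrcc4, the partner of DNA ligase IV in end joining (chr13:89889033-89889469, 40.1 kb from a gene end). It stood at 69.2, 56.6 and 68.7 in naive LPS and at 55.5, 67.3, 66.9, 62.7 and 65.5 in AF9-experienced LPS. Naive PBS 1, at 19.7, was its only PBS list, so the treatments did not overlap. Dapp1, an adaptor of phosphoinositide signalling in B cells, holds the next one (chr3:137957759-137958377). There the naive LPS values were 70.7, 64.5 and 53.6, the AF9-experienced LPS values 57.6, 59.3, 62.1, 63.5 and 43.1, and AF9-experienced PBS 1 had 34.7. A region 5.6 kb from Myo1d, which encodes an unconventional myosin (chr11:80785637-80786272), was in no PBS list. Its LPS values were even except for naive LPS 3: 58.7, 60.9 and 15.5 in naive and 55.5, 58.2, 72.0, 56.9 and 73.2 in AF9-experienced mice. The other 5 complete the 8 highest, with means of 52.2 to 56.8. They lie inside Ltbp1, a binding protein of latent TGF-beta, and Iqgap2, a scaffold protein of the cytoskeleton, and 13.2 kb from the glycosyltransferase gene B4galnt4. The last 2 lie 14.2 kb from Dcaf12, a ubiquitin ligase receptor, and 30.8 kb from Tent5c, a poly(A) polymerase.

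Regions next to the limits of the rule are given as values. By number of lists, 141 members had 8 LPS and 0 PBS lists, 99 had 8 and 1, 135 had 7 and 0 and 97 had 7 and 1. Just outside were 174 regions with 6 LPS lists and 0 PBS lists, 78 with 6 and 1, 83 with 7 and 2 and 85 with 8 and 2. The examples are the highest-ranked regions just outside and the lowest-ranked just inside, so their order was set by how they were picked. A region 19.7 kb from Sema4b, a semaphorin gene (chr7:80166758-80167199), was left out although its LPS values were 59.9 to 80.1, higher than those of any member by mean, because naive PBS 4 (18.04) and AF9-experienced PBS 2 (15.8) held it. Alox5ap, which encodes the activating protein of leukotriene synthesis (chr5:149274480-149275299), was left out with LPS values of 52.1 to 65.8 and PBS values of 72.5 in naive PBS 1 and 12.8 in AF9-experienced PBS 2. Gramd1c was left out at 38.5 to 74.6 after LPS, with 22.4 and 16.1 in 2 PBS lists. Just inside, a region in Rfx3, a transcription factor gene (chr19:27906917-27907280), was kept at 17.3, 7.03 and 23.0 in naive LPS and 12.1, 5.68, 0.12, 0 and 10.99 in AF9-experienced LPS, with 3.69 in AF9-experienced PBS 4. Fbxo11 (0 to 34.1 after LPS) and Rsbn1l (0 to 20.6) were kept in the same way.

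Genes of the inflammatory response were the first group examined. Its list of effectors, cytokines and chemokines had 8 members among 80 linked tested regions (10.0%), against 425 among the 22118 regions linked to any gene (1.92%). Over all gene lists drawn up here together it was 32 of 939 (3.41%), and the endothelial and stromal list had 3 of 28 (10.7%). The shares were not matched for distance to a gene end. Regions were linked by position alone, to the closest protein-coding gene no more than 50 kb away, which does not show the gene a region acts on. The 8 were at Acod1, Ccl4, Ccl9, Csf2, Cxcl2, Il10, Il1b and Osm. No PBS-side region was linked to this list, beside 195 among the 22118 regions linked to any gene. Without the 3 short lists, a looser choice that keeps all 472 members, the count was 12. Ranked by fold enrichment it was 5. With lists cut to 9550 peaks, a choice that has 144 members in all, it was 1.

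Acod1 makes itaconate in activated macrophages. Its region (chr14:103048449-103049239, inside the gene model, 1.4 kb from an end) stood at 51.7, 47.8 and 36.7 in naive LPS and 36.8, 38.1, 31.5, 39.5 and 46.3 in AF9-experienced LPS, and was in no PBS list. This was the most even of the 8. Il1b encodes a cytokine matured by the inflammasome. The Il1b region (chr2:129367991-129368507, inside the gene model) had 17.6, 24.2 and 0.82 in naive LPS and 45.2, 42.5, 47.1, 47.2 and 15.9 in AF9-experienced LPS, with no PBS list. Of the 5 AF9-experienced values, 4 exceeded all 3 naive ones there, and that of replicate 5 did not. Osm encodes oncostatin M, a cytokine of the IL-6 family. Its region (chr11:4232581-4233130, 3.7 kb outside) had 51.5, 48.9 and 41.9 in naive LPS, 37.2, 37.2, 65.1, 59.4 and 48.1 in AF9-experienced LPS, and 37.8 in AF9-experienced PBS 1. That PBS value lay just above the 2 lowest LPS values.

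The other chemokine and growth factor members were more uneven. A region 45.2 kb from Csf2, the gene of granulocyte-macrophage colony-stimulating factor (chr11:54201163-54202091), had 45.0, 33.8 and 50.6 in naive LPS, 34.3, 6.55, 28.8, 52.3 and 64.0 in AF9-experienced LPS and 23.5 in AF9-experienced PBS 1. Il10 encodes an anti-inflammatory cytokine, and the region 13.1 kb from it (chr1:131038076-131038564) ranged from 11.4 to 48.8 after LPS with no PBS list. Ccl4 and Ccl9 encode chemokines of the same cluster on chromosome 11. The Ccl9 region (chr11:83577083-83577666, at the gene end) had 36.2, 28.0 and 25.2 in naive LPS and 15.7, 4.69, 31.1, 49.3 and 39.2 in AF9-experienced LPS, beside 20.5 in AF9-experienced PBS 1. The Ccl4 region (chr11:83662131-83662828) was missing from AF9-experienced LPS 1, ranged from 3.48 to 47.8 in the other LPS lists and had 1.37 in naive PBS 4. In both, the LPS range included the PBS value. AF9-experienced PBS 1, one of the short lists, was the single PBS list that held Osm, Csf2, Ccl9 and Cxcl2.

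Upstream of these genes, NF-kB subunits, inhibitors and Toll-like receptor signalling had 3 members among 92 linked regions (3.26%). Traf2, an adaptor of TNF receptors, held one (chr2:25533918-25534880) at 41.8, 41.8 and 32.7 in naive LPS and 39.7, 28.9, 45.5, 27.03 and 25.4 in AF9-experienced LPS. A region 4.3 kb from Nfkb1, the precursor of an NF-kB subunit (chr3:135696260-135696807), had 33.5, 39.5 and 41.4 in naive LPS and 46.9, 44.0, 0.4, 36.6 and 17.0 in AF9-experienced LPS. Tnfaip3 encodes a ubiquitin-editing inhibitor of NF-kB, and its region (chr10:19009254-19009713) was weaker, from 0 to 30.0 after LPS. No PBS list held any of the 3. None of the Toll-like receptor genes, Cd14 or Myd88 was linked to a member.

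Interferon genes had 2 members of 84 (2.38%), 19.4 kb from the receptor chain gene Ifnar2 (0 to 47.3 after LPS) and 9.8 kb from the antiviral membrane protein gene Ifitm3 (0 to 34.4, with 9.36 in AF9-experienced PBS 1). The IL-6, JAK-STAT and SOCS list had 0 members of 88, and 3 PBS-side regions were linked to its genes Clcf1, Il6ra and Socs3. Over all 22118 linked regions there were 425 members and 195 PBS-side regions. Counts of 0 and 3 are too small to set this list apart. Ranked by fold enrichment or with lists cut to 9550 peaks, the interferon list had 0 members and the IL-6 list 1. At a 50% overlap they had 2 and 1, and without the short lists 3 and 0. AP-1, Nr4a, Egr and Kruppel-like factors had 2 of 128 (1.56%), at Klf4 and Klf7. Klf4 is a factor of monocyte differentiation, and the region 37.5 kb from it (chr4:55488599-55489606) had 52.5, 32.6 and 20.6 in naive LPS, 49.9, 46, 68.3, 52.4 and 55.8 in AF9-experienced LPS and no PBS list. No Fos or Jun family gene was linked to a member.

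**Figure D3:**
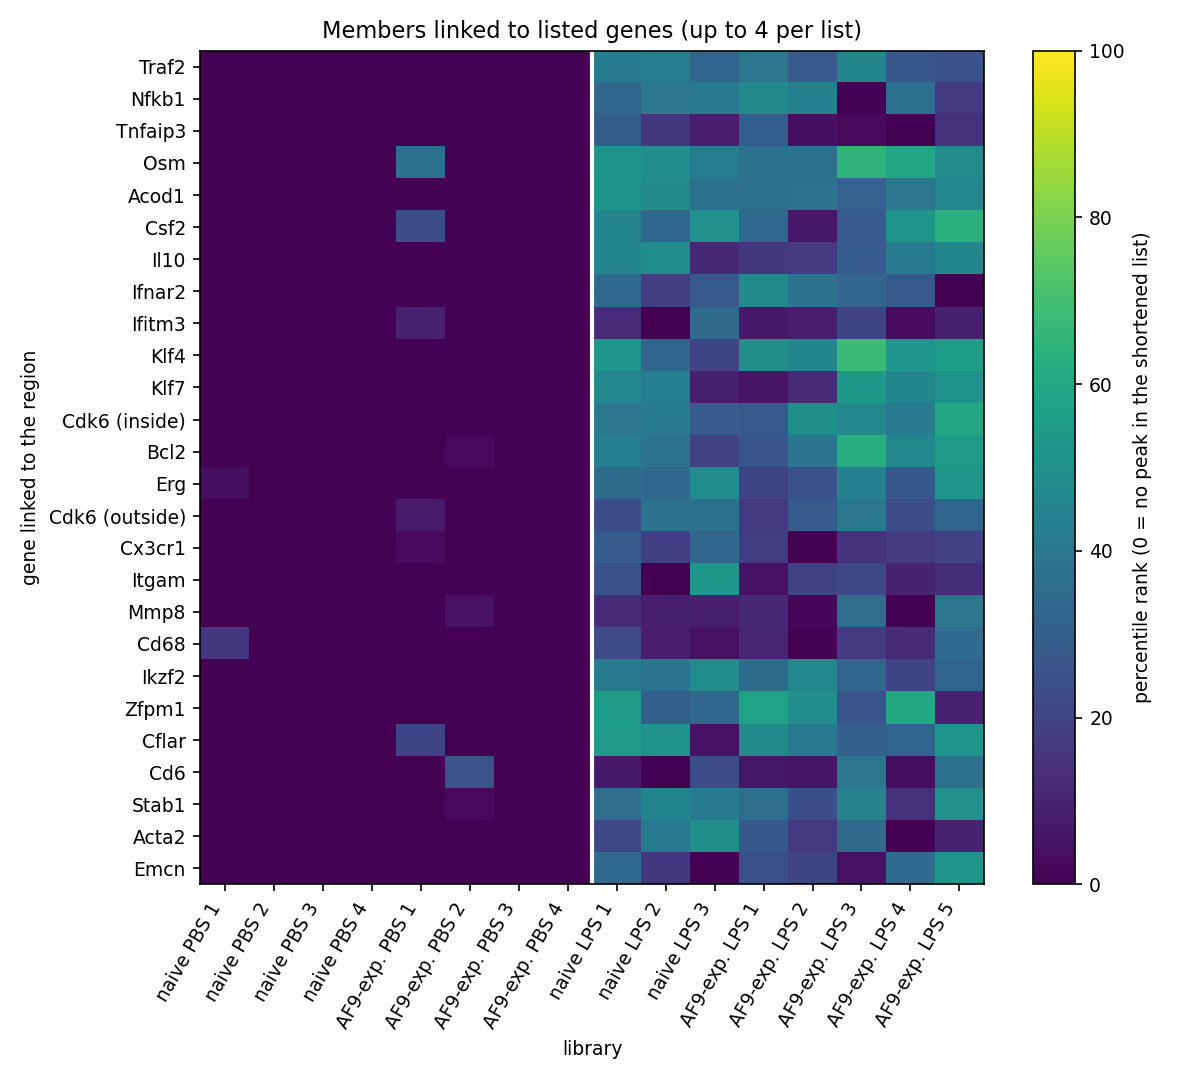
Percentile rank (colour, 0 to 100) of members linked to genes of the 13 lists (rows, up to 4 per list, highest mean first) in each of the 16 libraries (columns, PBS left of the white line). Values left of the line are 0 apart from at most 1 list per region, as the choice requires, and rank varies from library to library to the right of it.

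Among lineage genes, the stem cell identity and MLL-AF9 program list had 6 members of 152 regions (3.95%), among them regions at Bcl2, Cdk6 (2 regions), Erg and Etv6. Cdk6 encodes a cell cycle kinase that acts when stem cells leave quiescence. Its region inside the gene (chr5:3497252-3498170) had 40.2, 41.5 and 28.9 in naive LPS and 28.2, 49.9, 46.4, 41.8 and 60.1 in AF9-experienced LPS, with no PBS list. The other, 39.5 kb outside (chr5:3300857-3301539), ranged from 16.8 to 40.04 after LPS, with 7.04 in AF9-experienced PBS 1. Erg encodes an ETS-family factor needed for stem cell maintenance. The Erg region (chr16:95415825-95416661) had 35.4, 34.0 and 48.5 in naive LPS, 19.99, 25.2, 43.7, 27.7 and 52.1 in AF9-experienced LPS and 3.66 in naive PBS 1. Bcl2, an inhibitor of apoptosis, held a region (chr1:106626977-106627648) at 19.9 to 62.3 after LPS and 2.47 in AF9-experienced PBS 2. Bcl2 and Cdk6 also stand in the cell cycle and survival list (4 of 104, 3.85%), where the other member lies inside Cflar, an inhibitor of death receptor signalling (4.90 to 53.5 after LPS, with 20.03 in AF9-experienced PBS 1).

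Myeloid priming genes had 4 members of 48 (8.33%): 4.9 kb from the fractalkine receptor gene Cx3cr1, 11.4 kb from the integrin gene Itgam, and at the gene ends of the collagenase gene Mmp8 and of Cd68. All were weak. The Itgam region (chr7:128050651-128051262) had 24.7, 0 and 53.3 in naive LPS and 4.77, 19.4, 21.6, 9.86 and 13.3 in AF9-experienced LPS. Means over the LPS libraries were 18.6 at Cx3cr1, 14.6 at Mmp8 and 13.8 at Cd68. Lymphoid priming had 1 of 68, 34.7 kb from Ikzf2 (mean 37.1), and the megakaryocyte, erythroid and mast cell list 1 of 49, inside the GATA cofactor gene Zfpm1 (mean 40.2). The lists drawn up for other cell types also had members, linked by position alone. They were 3 of 28 endothelial and stromal regions (10.7%, at Stab1, Emcn and Acta2) and 1 of 18 for mature T, NK and B cells (Cd6). Ranked by fold enrichment, Cd6 turned to -0.0216 percentile points and neither list had a member. Of the endothelial and stromal gene ends read, those of Cdh5, Flt1, Cxcl12 and Lepr held no peak in any shortened list. Pecam1 was in 11 lists (median 2.58 after PBS and 17.1 after LPS), Kdr in 14 (31.6 and 7.35) and Col1a1 in all 16. The part of cells outside the sort in the result was not tested. Housekeeping genes had 0 members of 21.

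The LPS-minus-PBS differences of many of these members depended on the measure of peak strength. Ranked by fold enrichment in place of -log10 p, 28 of the 55 members named by rule stayed within 1.5 times their difference, 15 were lower by more than that, 7 higher by more than that and 2 reversed. Tnfaip3, Ifnar2 and the region inside Cdk6 had no peak among the 19100 strongest of any list. The difference went from 43.9 to 1.94 percentile points at Osm, from 40.2 to 1.61 at Zfpm1, from 36.3 to 6.02 at Stab1 and from 52.2 to 8.73 at the stronger Tent5c region. It went from 41.1 to 19.2 at Acod1, from 32.4 to 12.2 at Nfkb1, from 55.0 to 22.2 at Dapp1, from 56.3 to 24.7 at B4galnt4 and from 42.5 to 16.6 at Mfsd2b. Xrcc4 (61.6 and 63.2), Myo1d (56.4 and 67.6), Klf4 (47.3 and 55.8) and Il10 (31.8 and 29.1) had like values under both.

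The members lay mostly away from promoters. Only 43 (9.11%) were within 1 kb of either end of a gene model, against 9.55% of the PBS-side regions, 17.5% of the 2431 regions found in 7 to 9 of the 16 lists and 42.5% of the 23554 tested regions. Inside gene models lay 262 (55.5%, against 48.6%, 46.2% and 32.2% in the same order). Outside but within 50 kb were 120 (25.4%), and 47 (9.96%) were farther. The gene end share was thus much like that of the PBS-side regions and below that of regions of like frequency. The median distance to a gene end was 18.3 kb, against 15.9, 11.9 and 3.26 kb. Members had a median length of 696.5 bp, against 880 bp in PBS-side and 756 bp in the 7-to-9-list regions, and length follows the peaks merged. Summits of a member's peaks had a median SD of 30.0 bp between the LPS libraries, against 26.8 bp over tested regions in the same libraries. By chromosome, members made up 1.26% (chromosome 16) to 2.83% (chromosome 1) of tested regions.

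**Figure D4:**
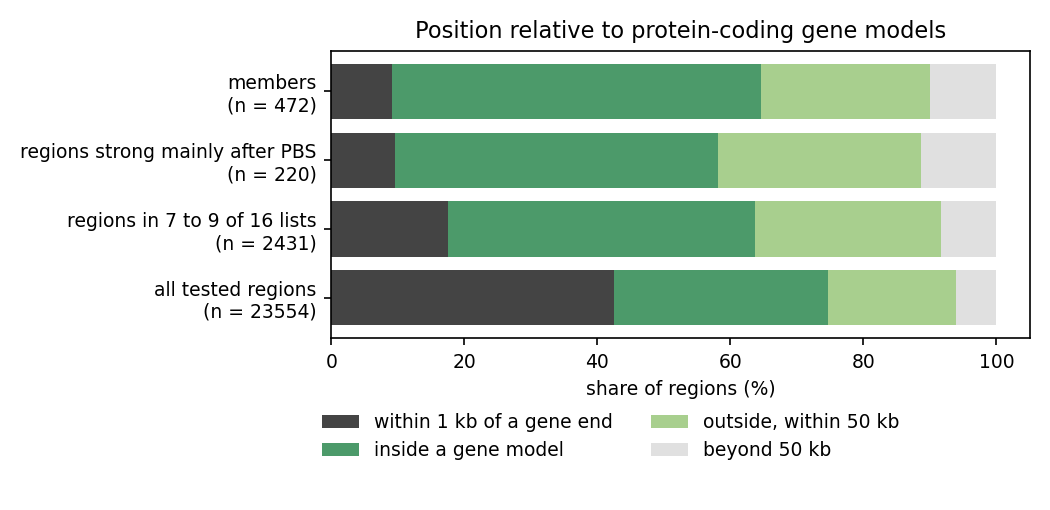
Share of regions (x axis, percent) by position relative to protein-coding gene models, for members, PBS-side regions, regions in 7 to 9 of 16 lists and all tested regions. Gene ends make up 9.11% of members and 42.5% of all tested regions.

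Of the 43 at a gene end, the 6 with the highest means included those of Ceacam19 and Ceacam2, cell adhesion genes of the carcinoembryonic antigen family. Ceacam19 (chr7:19876403-19877522) was among the most even of the members named, at 40.7, 55.7 and 49.1 in naive LPS and 49.9, 49.4, 49.7, 44.1 and 55.3 in AF9-experienced LPS. Rpp25, a subunit of ribonuclease P (chr9:57505563-57506235), had 44.2, 45.9 and 47.0 in naive LPS and 49.2, 49.7, 43.5, 63.8 and 38.8 in AF9-experienced LPS. Neither was in any PBS list. Clec2i, a C-type lectin gene, ranged from 19.9 to 61.5, the splicing factor gene Usp39 from 16.5 to 52.9 and Ceacam2 from 22.3 to 44.6. Mfsd2b, the exporter of sphingosine-1-phosphate in blood cells, had 35.5 to 55.1 in 7 LPS lists, 4.95 in AF9-experienced LPS 5 and 4.24 in naive PBS 4.

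Another member lay within 50 kb of 36 members (7.63%). The like share was 4.55% for the smaller set of PBS-side regions and 24.6% for the larger set of 7-to-9-list regions. It depends on the size of the set, and the share for evenly spread regions was not computed. The median distance to the nearest region present in all 16 lists was 30.2 kb, against 42.0 kb for PBS-side and 31.0 kb for tested regions. The 425 linked members fell on 406 genes, of which 19 had 2 members and none had 3. Paired members need not rank alike. At Ltbp1 the 2 averaged 54.6 and 23.5 over the LPS libraries, and at Tent5c 52.2 and 28.2. At Ergic1, a gene of the ER-Golgi compartment, they averaged 45.8 and 36.3, with different libraries high: naive LPS 2 and 3 had 51.9 and 62.5 at one and 16.5 and 19.6 at the other. At Noct, the nocturnin gene of the circadian clock, the means were 45.4 and 23.0, and at Fyb, an adaptor of immune receptor signalling, 44.4 and 20.6.

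The ends of the genes themselves were read beside the members. Of 364 genes linked to a member away from gene ends, 251 had a tested gene end region, and these differed between LPS and PBS by a median of -0.506 percentile points. Over all 9564 genes with such a region the median was -0.312. Of the 251, 76.1% were in all 16 lists, against 75.4% of all.

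AF9-experienced and naive mice were compared within the 8 LPS libraries. None of the 20393 regions tested passed (limma, adjusted p under 0.05; 0.0%), and the smallest adjusted p was 0.966. The choice of members did not set the 2 backgrounds against each other, but it drew on these same lists and allows at most 1 of them to lack a peak. This limits how far the groups can differ at a member, so the members' values are a description. At an unadjusted p under 0.05, 23 members were higher in AF9-experienced mice and 5 lower, beside 2.46% and 1.97% of all tested regions. The median difference was 2.27 percentile points with a range of -28.6 to 37.0, and 272 members were above 0, while the median of all tested regions was 0.0244. Without naive LPS 3, the short list, the median was -0.657, with 8 members higher and 8 lower at an unadjusted p under 0.05 and 225 above 0. AF9-experienced values exceeded naive values in every library at 16 members (3.39%, background 1.47%) and lay below them in every library at 6 (1.27%, background 1.53%). In the interaction of LPS and AF9 experience over all 16 libraries, 0 of 23554 regions passed (0.0%), with 1.34% higher and 1.6% lower at an unadjusted p under 0.05. For members the interaction repeats the difference after LPS, because the choice holds their PBS values near 0.

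The 3 members with the smallest p in that fit are given as values only, with no test. A region inside Sdccag8, a centrosome gene (chr1:176845443-176845934), had 5.58, 3.21 and 0 in naive LPS and 27.7, 35.3, 48.0, 58.5 and 30.1 in AF9-experienced LPS. The groups did not overlap, with a difference of 37.0. A region 77.8 kb from Tet2, the DNA demethylation enzyme gene often mutated in myeloid disease (chr3:133622980-133623850), went the other way. It had 41.2, 45.6 and 37.7 in naive LPS and 28.1, 6.18, 12.8, 12.3 and 4.91 in AF9-experienced LPS, a difference of -28.6. Mxd1 encodes an antagonist of Myc. The region 6.8 kb from it (chr6:86639246-86640277) had 6.96, 25.6 and 33.3 in naive LPS and 47.6, 44.9, 58.8, 57.3 and 33.4 in AF9-experienced LPS, a difference of 26.5.

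**Figure D5:**
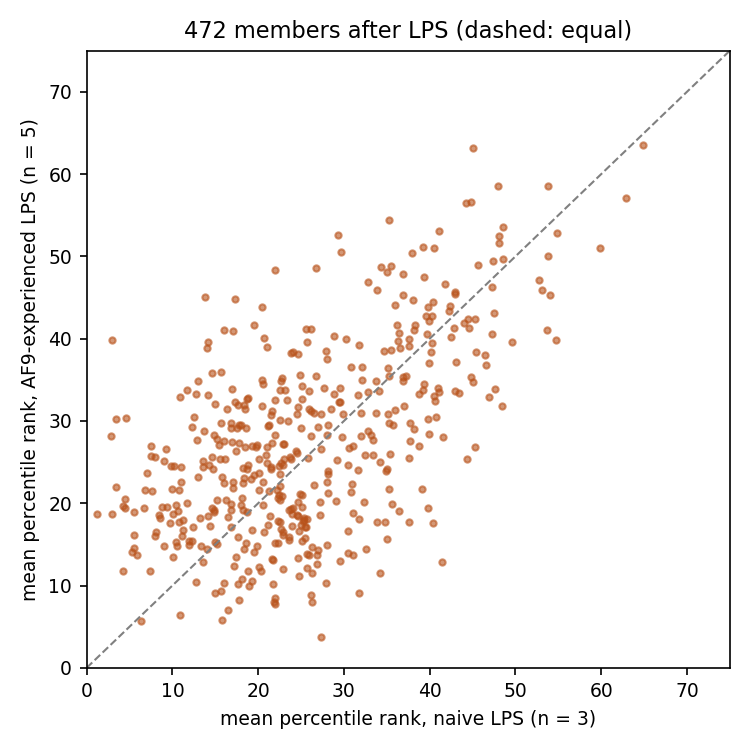
Mean percentile rank of each of the 472 members in naive LPS (x axis, 3 libraries) and AF9-experienced LPS (y axis, 5 libraries), with a dashed line at equality. Members lie on both sides of the line, 272 of them above it.

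LPS against PBS was also read in libraries that the choice did not use, with regions chosen in one background and read in the other. In naive mice, 474 regions had a peak in 3 of 3 LPS lists and 0 of 4 PBS lists, 268 of them members. In the AF9-experienced libraries, 398 of them had a peak in at least 3 lists and were tested, 142 were higher after LPS (limma, adjusted p under 0.05) and 0 were lower. The 142 are 30.0% of the 474, beside 2.44% of all 31846 regions, and 35.7% of those tested, beside 3.65% of the 21272 tested. Regions could meet the minimum of 3 lists through LPS lists alone, and values of 0 in PBS lists narrow the spread fitted. The 142 calls and their shares are therefore a description. With no minimum, 130 of 465 were called, beside 651 of 27731. LPS exceeded PBS at 448 of the 474 (94.5%) and lay below it at 17. Of all 31846 regions, LPS was above PBS at 13479 (42.3%) and below it at 14252, and the rest were ties. The median difference over all 474 was 16.9 percentile points, regions without a peak there included. Without AF9-experienced PBS 2, 3 or 4 the count of 142 was 81, 76 or 77, beside 471, 379 or 417 among all regions tested. Without naive PBS 4, which changes the choice, it was 218.

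Exchanging the backgrounds gave the same direction and fewer calls. In AF9-experienced mice, 349 regions had a peak in 5 of 5 LPS lists and 0 of 4 PBS lists, 296 of them members. In the naive libraries 241 of them were tested, 65 were higher after LPS and 0 lower. The 65 are 18.6% of the 349, beside 0.512% of all regions, and 26.97% of those tested, beside 0.816% of the 19966 tested. Here too the minimum of 3 lists could be met through LPS lists alone, and PBS values of 0 narrow the spread fitted. The 65 calls and their shares are therefore a description. With no minimum, 0 of 345 were called, beside 0 of 28500. LPS exceeded PBS at 331 (94.8%) and lay below it at 14. Of all 31846 regions, LPS was above PBS at 13528 (42.5%) and below it at 14972, and the rest were ties. The median difference was 21.1 percentile points over all 349, against 0.0 over all regions. These 65 calls were fragile. Leaving out naive LPS 1, 2 or 3 or naive PBS 2, 3 or 4 gave 0, with 0 calls among all regions too. Leaving out naive PBS 1 gave 94, beside 439 of all 19464 tested. Ranking by fold enrichment, shorter lists, a 50% overlap rule or no minimum number of lists also gave 0, with 0 among all regions. In the first reading, ranking by fold gave 60 calls of 425 tested, beside 819 of all 23464 tested. Shorter lists gave 20 of 108, beside 92 of 10634, and the overlap rule 66 of 528, beside 271 of 22438. Both choices shared 141 regions, 29.7% of the naive choice and 40.4% of the other. The treatments differ in median fold enrichment in both backgrounds, so this reading repeats that difference as well, and its part in the result cannot be told apart here.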

How the data were processed

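Peak lists (narrowPeak) of 16 biological replicates, assigned by name to the labels' groups, were used; the labels count 32 samples, 2 technical libraries each. Per the submitters' processing notes, reads passed through Trim Galore, FastQC, BWA and Picard, peaks through MACS3, on build GRCm38; versions and filters are not given in the sources used here. Both a Chromium single-cell chemistry and the Omni-ATAC protocol appear in the labels. Each deposited list gives the authors' fold enrichment (a ratio), the authors' -log10 p per peak and a summit offset, another deposited value.

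From these, lists were shortened, merged and ranked as in the report, with chromosomes X and Y left out. Ranks were fitted with limma 3.58.1 (trend and robust options) in R 4.3.3, adjusted by Benjamini-Hochberg over all regions in at least 3 of the lists fitted; the script was tested on simulated data. RefSeq (GRCm38.p6; 20665 autosomal protein-coding gene models, no strand) gave positions. Members, gene lists and tests were chosen with earlier results of these data known. Members named are, by rule, the 8 highest and 4 lowest by mean rank after LPS, up to 6 at gene ends, up to 4 per gene list, up to 6 genes with several members, the 3 smallest p after LPS, and 3 on each side of the limits. Others (Il1b, Ccl4, Ccl9, Cxcl2 and the promoter examples) were added after their values were seen. Results at some genes are not reported here.

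Alternatives tried were ranking by fold, half-length and full lists, a 50% overlap, other limits, each replicate left out, no short lists, no minimum number of lists, a replicate block, all 16 libraries in 1 fit, a gene end within 2 kb and a link within 10 kb.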

Additional observations from a re-analysis of the deposited data

Results flagged for a closer look

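In groups of 4 or 5 libraries, a library whose gap to its neighbour exceeded Dixon's 95% limit was noted; chance does this in about 1 of 20 groups, and 73 were examined. Naive PBS 1 held 56 members in its full list, far below the other naive PBS libraries, and AF9-experienced PBS 1 held 147. AF9-experienced PBS 1 was also lowest of its group in peak number (25685), in median fold enrichment (5.34) and in median peak width of the shortened list (484 bp). Single members stood out within AF9-experienced LPS: low values at Dapp1 (43.1), Mfsd2b (4.95) and Cx3cr1 (0, in AF9-experienced LPS 2), and high values at Fbxo11 (34.1), Xpo1 (22.6) and the first Fyb region (66.5).

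Chromosome X was outside the choice of members. Of its 578 merged regions, 3 met the same rule, and 0 met the rule with LPS and PBS exchanged.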

How the results depend on the processing

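Membership depends on the length of the lists and on the ranking. Against 472 members, peaks in all 8 LPS and no PBS lists gave 141, at least 6 LPS and at most 2 PBS lists 954, half-length lists 144 and full lists 115. Ranking by fold enrichment gave 508, of which 159 (33.7% of the 472) were shared; half-length lists shared 4 (0.847%), full lists 0, a 50% overlap 393 (83.3%), and the choice without the 3 short lists (707) all 472. Leaving out 1 replicate gave 488 to 581. With lists left out, the choice still let 1 remaining LPS list lack a peak and 1 remaining PBS list hold one. A main member meets that looser rule almost by construction, so these counts and the 472 shared do not show stability. A gene end within 2 kb took in 14.0% of members, and a link within 10 kb 73.9%.

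The 142 calls of regions chosen in naive lists became 60 ranked by fold, 20 with lists cut to 9550 peaks and 66 at 50% overlap. Among all regions tested, calls went from 776 to 819, 92 and 271 in the same order. Leaving out 1 replicate gave 76 to 218. The 65 calls of the reverse reading became 0 ranked by fold, with lists cut to 9550 peaks, at 50% overlap and with no minimum number of lists. Among all regions tested, calls went from 163 to 0 in each of these. Without the short lists the count was 40, beside 577 among all regions tested, and leaving out 1 replicate gave 0 to 94. AF9-experienced against naive and the interaction gave 0 called members in every alternative run. The cause of these shifts was not tested. Deviations of same-numbered libraries from their group means had r of -0.22 to 0.23. Only for naive PBS 1 was the library of the same number, AF9-experienced PBS 1, the closest of the other group (r 0.231). These are the short PBS lists, and a batch shared between them was not tested. With the replicate number as a block the counts were 91 and 0, beside 418 and 0 among all regions tested.

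Ranked by fold, LPS minus PBS reversed at Cd68 (-0.114) and Cd6 (-0.0216), was lower by over 1.5 times at 15 more of the 55 members named by rule, and had no value at 3. The planned motif search in windows around peak summits, and its 100-base alternative, were not run, as no genome sequence was used. Peak lists give no read depth, so a region missing from a list cannot be told apart from one too shallow to be called.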
